A study of Mus musculus with 6 samples.

Results

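The 1901 exon blocks described here are internal blocks of mouse genes that lie beside a stretch of at least 20000 bases without any annotated exon of the same gene. A block is an exon, or a merged run of overlapping exons, of 1 gene, numbered from the 5′ end of the gene, and a gap is the distance to the next block, which for most genes is the length of an annotated intron. Blocks with a span of at least 52 and under 1000 bases were taken where they had at least 30 counts over the 6 libraries and their gene had at least 50 in each. They belong to 1012 genes and were taken from 291424 blocks in all. A further 1387 blocks met every other condition and fell under 30 counts, so that 1901 of 3288 could be described. The blocks were chosen by gap length, span and counts pooled over both groups. A block low in 1 group could reach the minimum through the other: 231 of the 1901 had under 30 counts in siRNA-NC and not in siRNA-Eif4a3, and 150 had the reverse. The choice is therefore not independent of the difference between groups for these blocks. For comparison, 25121 blocks of 5966 genes had both gaps under 2000 bases, and 619 genes held blocks of both kinds.

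The study injected mouse zygotes with a control siRNA (siRNA-NC) or with an siRNA against Eif4a3 (siRNA-Eif4a3) and collected the embryos on day 5, when they were blastocysts, the stage with an outer trophectoderm, an inner cell mass and a fluid-filled cavity. Each group had 3 libraries, and each library was made with Smart-seq2, a full-length cDNA method, from the polyadenylated RNA of 5 pooled embryos. Strain, sex and parents of the embryos are not given in the sources used here, and nothing says that pools of 1 group came from separate crosses, so p-values measure the spread between these pools only. Knockdown by an injected siRNA is partial and acts in all cells of the embryo.

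Eif4a3 RNA was at 302, 255 and 202 CPM (counts scaled to a common library total) in siRNA-NC and at 16.0, 36.2 and 56.2 CPM in siRNA-Eif4a3, with no overlap between groups (log2 fold change −2.81, SE 0.44, adjusted p 0.00512 by edgeR; exact permutation p 0.1, the smallest that 3 against 3 libraries allow). Counts summed over blocks ranged from 15607227 to 18697754 per library. Markers of trophectoderm, epiblast and primitive endoderm were detected in every library, as the label blastocyst requires. The summed level of 8 trophectoderm markers ranged from 2430 to 6190 CPM in siRNA-NC and from 543 to 2180 CPM in siRNA-Eif4a3. For 6 epiblast and inner cell mass markers it was 389 to 554 and 128 to 168 CPM, and for 5 primitive endoderm markers 251 to 268 and 65.3 to 79.4 CPM. Of 6 cumulus cell markers, 5 were at 0 in every library. Fewer cells of a type and less RNA per cell cannot be told apart in such pools, and the part of these differences in the results below was not tested.

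Eif4a3 encodes the DEAD-box RNA helicase that anchors the exon junction complex, a set of proteins left on spliced mRNA a short distance upstream of each exon junction. The complex helps export and translation, marks transcripts with an early stop codon for nonsense-mediated decay, and takes part in splicing itself. In flies, loss of its core subunits is known to disturb the splicing of genes with long introns, among them the MAP kinase gene. Very long introns pose a particular task, since the splice sites of an exon must be paired over a long distance while many cryptic sites lie between them. A transcript may also end inside such an intron when a polyadenylation site there is used, and this leaves a short mRNA with a different last exon.

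The share of a block is its count as a percent of the summed counts of all blocks of its gene. Among the 1901 blocks, 7 had a higher share in siRNA-Eif4a3 in the edgeR exon usage test at an adjusted p under 0.05 and 0 had a lower share. This is 0.368% of the blocks, against a background of 0.168% called higher and 0.057% called lower among all 71885 blocks tested. At an unadjusted p under 0.05 the same test gave 54 blocks higher (2.84%) and 34 lower (1.79%), against 1.87% and 1.47% of all blocks tested. Other tools called more blocks: limma gave 12 higher and 1 lower (background 0.246% and 0.164%) and DESeq2 gave 31 and 9 (background 1.03% and 0.869%), each including 6 of the 7. On simulated data DESeq2 also called 85 blocks that had been given no change, against 3 for edgeR and 0 for limma. DESeq2 calls here and below are to be read with that limit. The number called higher by edgeR was 1 without siRNA-NC replicate 1 or 2, 2 without siRNA-NC replicate 3, and 3 and 4 without siRNA-Eif4a3 replicates 2 and 3. The 7 blocks belong to Pnpla8, Ak4, Baz2b, Ndufs4, Asap2, Camkmt and Smyd3. All but Ak4 and Smyd3 were under 30 counts over the siRNA-NC libraries (4 to 11) and met the minimum through siRNA-Eif4a3. Of the 1294 blocks with at least 30 counts in each group, 2 were called, and at a minimum of 100 counts in all, 2 calls were made (Ak4 and Ndufs4). All of them lie in the first of 3 equal parts, from 5′ to 3′, of the blocks of their gene, and each lies in exactly 1 transcript of the GENCODE vM21 annotation, which held 1894 of the 1901 blocks. Of the 1901, 418 lie in exactly 1 transcript, a property that was counted after the calls had been seen.

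To show the annotated structure of such blocks, the sequences of 3 short coding ends and of 1 non-coding exon are printed here, together with a coding exon of Exoc4 whose share was lower in siRNA-Eif4a3. Ndufs4, Smyd3 and Camkmt are among the 7, while Commd1 and Exoc4 did not pass the threshold. All are from GENCODE vM21 transcripts on GRCm38, 5′ to 3′ on the strand of the gene. Capitals mark the stop codon with which the reading frame of the short transcript ends.
Ndufs4 block 3, chr13:114361473-114361545, minus strand: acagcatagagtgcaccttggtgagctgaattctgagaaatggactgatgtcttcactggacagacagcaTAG
Smyd3 block 2, chr1:179509081-179509135, minus strand: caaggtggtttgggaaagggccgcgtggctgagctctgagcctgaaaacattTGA
Commd1 block 6, chr11:22956200-22956232, minus strand: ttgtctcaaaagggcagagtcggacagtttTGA
Camkmt block 5, chr17:85160890-85160986, plus strand: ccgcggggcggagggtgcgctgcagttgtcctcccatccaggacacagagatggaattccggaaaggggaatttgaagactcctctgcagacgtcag
Exoc4 block 24, chr6:33921378-33921537, plus strand: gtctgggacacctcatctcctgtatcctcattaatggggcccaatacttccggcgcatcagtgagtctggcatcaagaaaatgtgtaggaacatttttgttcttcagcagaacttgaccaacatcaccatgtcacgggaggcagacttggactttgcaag

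Ndufs4 encodes an accessory subunit of mitochondrial complex I. Among the 7 it had the largest log2 change in usage, though not the lowest adjusted p. Its block 3 of 7 (chr13:114360768-114361545, 778 bases) is a last exon used by 1 coding transcript with 2 exons, and it lies between gaps of 25862 and 9241 bases. It had 1, 5 and 5 counts in siRNA-NC and 53, 67 and 65 in siRNA-Eif4a3. The first 70 bases are coding and are followed by the stop codon shown above, which gives a reading frame of 55 codons where the longest Ndufs4 frame has 175. The share was 0.0970 ± 0.0621% (SD, n = 3) in siRNA-NC and 1.85 ± 0.459% in siRNA-Eif4a3, with a log2 change in usage of 4.08 (SE 0.79, adjusted p 0.0109 by edgeR). Its neighbours were not called. Block 2 upstream had 4, 4 and 4 counts against 0, 14 and 5, and block 4 downstream had shares of 16.6 ± 0.229% and 15.8 ± 0.631%, in groups that overlap. Without siRNA-NC replicates 1, 2 or 3 or siRNA-Eif4a3 replicate 3 the adjusted p was 0.219, 0.19, 0.147 and 0.153, while the log2 change stayed between 3.69 and 4.44.

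Smyd3, which encodes a SET and MYND domain lysine methyltransferase, had the same structure at its block 2 of 19 (chr1:179508307-179509135, 829 bases), which stands before a gap of 84888 bases. Counts were 44, 47 and 38 in siRNA-NC and 145, 68 and 68 in siRNA-Eif4a3, so the lowest knockdown library exceeded the highest control. The block is the last exon of a transcript with 2 exons and 72 codons, against 428 codons in the longest frame. It held 4.46 ± 1.67% of the gene's counts in siRNA-NC and 15.0 ± 4.25% in siRNA-Eif4a3 (log2 change 1.79, SE 0.32, adjusted p 0.0476 by edgeR). Blocks 3 and 4, on the far side of the gap, had mean shares of 6.995% and 9.62% in siRNA-NC and 5.996% and 8.44% in siRNA-Eif4a3, with no call. The Smyd3 call was the least stable of the 7: the adjusted p was 0.743, 0.209 and 0.297 without siRNA-NC replicates 1, 2 and 3, 0.126 and 0.134 without siRNA-Eif4a3 replicates 1 and 2, and 0.183 when all exon lines of a block were summed.

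Commd1, a COMM domain protein known for its role in copper handling and endosomal sorting, has a similar end just under the threshold, and its block was singled out after its values had been seen. Block 6 of 7 spans 81 bases, of which 30 are coding and are followed by the TGA shown above, in a frame of 139 codons, against 243 in the longest frame. It precedes a gap of 56094 bases. The counts were 83, 78 and 70 in siRNA-NC and 182, 181 and 194 in siRNA-Eif4a3, so the groups did not overlap. Its share went from 4.28 ± 0.263% to 12.3 ± 0.508% (log2 change 1.52, SE 0.31, adjusted p 0.0752 by edgeR). The adjusted p was 0.0193 by limma, 7.92e-17 by DESeq2 and 0.0173 with the replicate number as a block. It was 0.121 with all exon lines summed, 0.212 with internal blocks only and 0.0517 to 0.527 with 1 library left out.

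Further blocks that passed the test belong to no coding transcript. Ak4 encodes an adenylate kinase of the mitochondrial matrix, and its block 3 of 7 (chr4:101420497-101420747, 251 bases) is annotated as the first exon of a processed transcript beside a gap of 26412 bases. It had 8, 8 and 16 counts in siRNA-NC and 52, 34 and 47 in siRNA-Eif4a3, and a share of 0.269 ± 0.109% against 1.82 ± 0.445% (log2 change 2.70, adjusted p 0.00523). Block 2, which lies 531 bases upstream and is far more counted, had shares of 6.55% and 8.69% and was not called. The Ak4 call was lost without siRNA-NC replicate 1 (adjusted p 0.154), siRNA-NC replicate 2 (0.133) or siRNA-Eif4a3 replicate 3 (0.0915).

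Baz2b encodes a bromodomain protein that binds chromatin. Its block 4 of 44 (chr2:60206126-60206560, 435 bases) is the last exon of a processed transcript and stands before a gap of 44591 bases. Counts were 6, 3 and 2 in siRNA-NC and 14, 21 and 23 in siRNA-Eif4a3, a share of 0.815 ± 0.361% against 8.47 ± 3.59% (log2 change 3.27, adjusted p 0.00755). Block 3, only 32 bases upstream, had 11, 4 and 5 counts against 12, 17 and 23 and was not called (adjusted p 0.179). Block 5, across the long gap, had 0 counts in 5 of 6 libraries. The call was lost without any of the siRNA-NC replicates 1 to 3 (adjusted p 0.0523, 0.165 and 0.12) and without siRNA-Eif4a3 replicate 2 (0.0716) or 3 (0.0524).

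Asap2 encodes a GTPase-activating protein for Arf proteins, which act in membrane traffic. Block 2 of 35 (chr12:21042935-21043333, 399 bases), behind a gap of 52062 bases, had 0, 4 and 0 counts in siRNA-NC and 41, 25 and 15 in siRNA-Eif4a3. In share this was 0.855 ± 1.48% against 18.7 ± 10.4% (log2 change 4.07, adjusted p 0.0292). The log2 change was 3.26 without siRNA-NC replicate 1 and 7.61 without siRNA-NC replicate 2, which holds all 4 control counts. Block 1 had 3, 1 and 0 counts against 8, 7 and 3, and block 3 had 0, 2 and 0 against 19, 11 and 8 (adjusted p 0.194), while block 4 had no count in any library. The block overlaps an exon of another gene, and since Smart-seq2 does not mark the strand its counts cannot be assigned to Asap2 alone. The call was lost without siRNA-NC replicate 1 (adjusted p 0.51) or 3 (0.183), without siRNA-Eif4a3 replicate 1 (0.0628) or 2 (0.195), with a replicate block (0.16), and when only internal blocks entered the fit (0.0902).

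Camkmt encodes the methyltransferase of calmodulin. Block 5 of 16, the exon of 97 bases shown above, lies behind a gap of 47042 bases in a processed transcript of 6 exons. It had 5, 1 and 0 counts in siRNA-NC and 10, 24 and 8 in siRNA-Eif4a3, or 0.547 ± 0.591% and 8.26 ± 7.15% of the gene (log2 change 3.36, adjusted p 0.0297). With a total of 48 counts it is the least counted of the 7, and siRNA-Eif4a3 replicate 2 holds 24 of them. The log2 change was 2.445 without siRNA-Eif4a3 replicate 2 and 4.714 without siRNA-NC replicate 1. Blocks 3 and 4 upstream of the gap had similar counts in both groups (39, 31 and 36 against 30, 19 and 49 for block 3). The call was lost without siRNA-NC replicate 1 (adjusted p 0.0913), 2 (0.336) or 3 (0.41), without siRNA-Eif4a3 replicate 2 (0.728), with a replicate block (0.0776), with limma (0.105) and with DESeq2 (0.0577).

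Pnpla8, which encodes a calcium-independent phospholipase of mitochondria and peroxisomes, held the lowest adjusted p. Its block 4 of 15 (chr12:44254585-44254773, 189 bases) is a non-coding exon near the 5′ end of 1 coding transcript, between gaps of 23154 and 14374 bases. Counts were 3, 0 and 2 in siRNA-NC and 26, 38 and 29 in siRNA-Eif4a3. The share was 0.167 ± 0.146% against 2.24 ± 0.873% (log2 change 3.59, SE 0.56, adjusted p 0.0044 by edgeR). Upstream of the gap, block 2 had 0, 0 and 1 counts against 17, 17 and 14 (log2 change 4.53, adjusted p 0.012) and block 3 had 2, 0 and 3 against 21, 18 and 13 (2.67, adjusted p 0.221). Block 5, which follows, did not separate the groups, with 23, 17 and 22 counts against 37, 21 and 39. Blocks 2 and 4, on opposite sides of a gap of 23154 bases, were thus called, and block 3 was not. Without siRNA-NC replicate 2 the adjusted p of block 4 was 0.209, and without siRNA-Eif4a3 replicate 2 it was 0.0563.

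**Figure D1:**
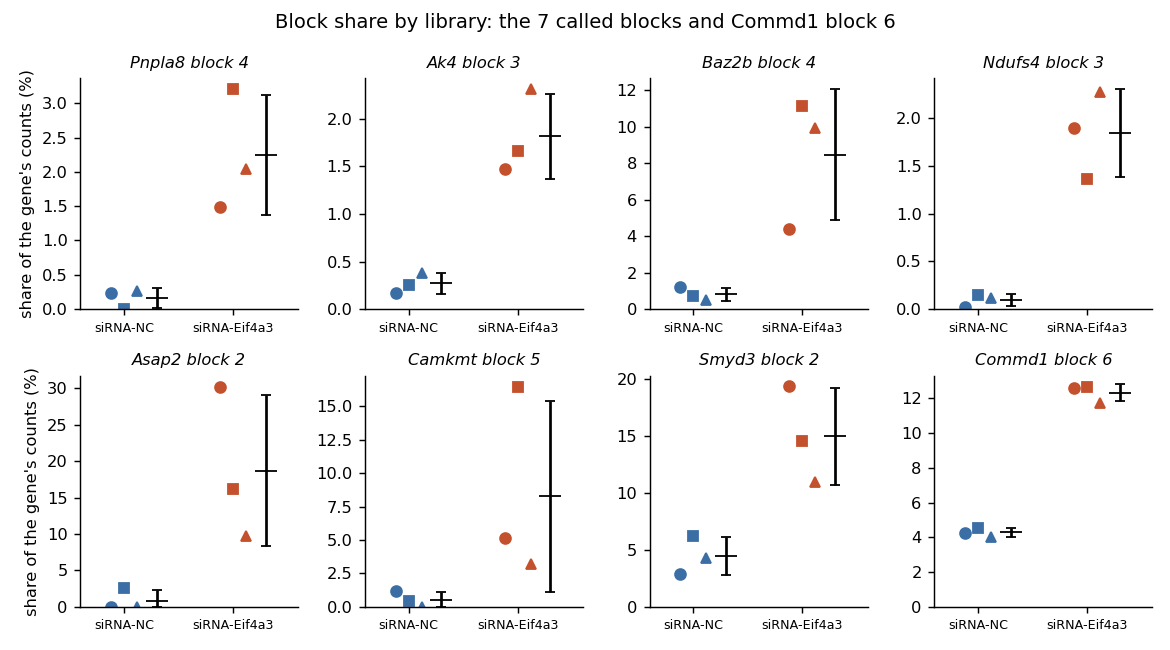
Share of the gene's counts (%, linear axis from 0) held by each of the 7 called blocks and by Commd1 block 6, with 1 point per library (circle, square and triangle for replicates 1 to 3; blue siRNA-NC, red siRNA-Eif4a3) and the group mean ± SD in black, cut at 0. In each panel all 3 siRNA-Eif4a3 libraries lie above all 3 siRNA-NC libraries, and siRNA-Eif4a3 replicate 2 stands far above the other two in Camkmt.

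Other blocks closest to the threshold, named after their values had been seen, were of more kinds. Mpp7, a membrane scaffold protein of cell junctions, had a mean share of 0.609 ± 0.297% in siRNA-NC and 4.32 ± 1.92% in siRNA-Eif4a3 at block 24 of 28 (log2 change 2.73, adjusted p 0.0728). Ate1, the arginyltransferase that marks proteins for degradation, had 57, 34 and 55 counts against 105, 93 and 157 at block 13 of 14, the best counted of this group (share 2.96 ± 0.354% and 9.12 ± 2.84%, adjusted p 0.084 by edgeR, 0.000673 by limma). Eipr1, which takes part in endosomal recycling, had 0, 1 and 2 counts against 23, 11 and 14 at block 5 (adjusted p 0.0928), a block with coding bases whose only transcript is annotated for nonsense-mediated decay. Higher means in siRNA-Eif4a3 without a call were also seen in coding genes where the second block follows a long gap. The kinase gene Pak2 had shares of 11.3%, 15.5% and 15.3% in siRNA-NC and 27.8%, 28.8% and 42.2% in siRNA-Eif4a3 at block 2 (adjusted p 0.329 by edgeR, 0.000848 by limma). For the deubiquitinase gene Usp7 the shares at block 2 were 13.2%, 23.2% and 27.5% against 40.8%, 40.01% and 41.1% (adjusted p 0.937 by edgeR, 0.00258 by limma). The Pak2 and Usp7 blocks each lie in exactly 1 transcript of GENCODE vM21. They had 7.40 and 16.4 times the median count of the tested internal blocks of their gene, so they are not typical internal exons.

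The name internal exon holds for most but not all of the blocks. In GENCODE vM21, 1074 blocks were internal exons that no coding transcript spanning them leaves out, 107 were left out by at least 1 such transcript, and 66 were internal in transcripts of which none is coding. A further 465 were internal in some transcripts and a first or last exon in others, 182 were only ever a first or last exon, and 7 were not in that annotation. The calls did not follow the sizes of these groups, but 5 of the 7 met the count minimum only through siRNA-Eif4a3. Of the 1294 blocks with at least 30 counts in each group, 2 were called (Ak4 and Smyd3), both end exons. The percentages of calls by group are therefore not independent of the count minimum. The 182 blocks that were only end exons held 4 of the 7 (Ndufs4, Smyd3, Ak4 and Baz2b; 2.20%), the 66 without a coding transcript held 2 (Asap2 and Camkmt; 3.03%), and the 1074 held 1 (Pnpla8; 0.0931%). Among short-gap blocks the higher calls were 4 of 489 end exons (0.818%), 14 of 518 without a coding transcript (2.70%) and 0 of 14395 that no coding transcript leaves out. Of the 40 calls of DESeq2, 10 were in the end exons (all higher), 5 in the blocks without a coding transcript (all higher) and 17 in the 1074 (10 higher, 7 lower). The median log2 change of share was 0.173 in the 182 end exons, 0.146 in the 66, 0.076 in the 465, 0.068 in the 107 and 0.033 in the 1074. Of 211 blocks without any coding base, 5 were called higher and the median change was 0.205. Blocks contained in a transcript that the annotation marks for nonsense-mediated decay numbered 448, of which 0 were called by edgeR. At an unadjusted p under 0.05 by edgeR, 9 were higher (2.01%) and 3 lower (0.67%), against 1.87% and 1.47% of all blocks tested. The median change in the 448 was 0.065. Short-gap blocks showed a like order, with a median of 0.154 in 489 end exons and −0.013 in 14395 exons that no coding transcript leaves out.

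**Figure D2:**
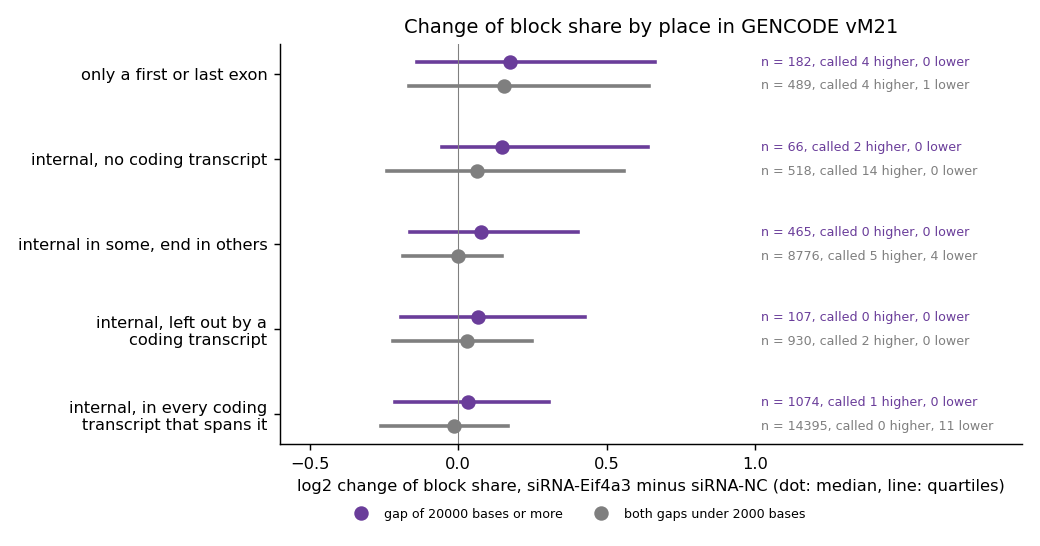
Median (dot) and quartiles (line) of the log2 change of block share, siRNA-Eif4a3 minus siRNA-NC, for blocks beside a gap of 20000 bases or more (purple) and with both gaps under 2000 bases (grey), by their place in GENCODE vM21, with the number of blocks and of calls. The median is 0.173 for purple end exons and 0.033 for purple exons in every coding transcript that spans them.

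Over all 1901 blocks the change in share was small. The median log2 change was 0.063 (quartiles −0.181 and 0.376) and 57.5% of the blocks were higher in siRNA-Eif4a3, against a median of −0.005 and 48.9% for short-gap blocks and 0.008 and 51.6% for all blocks tested. With shares taken of internal blocks only, the median was 0.020. As a deviation from each block's mean over the libraries, the median was −0.006, −0.043 and 0.013 in siRNA-NC and 0.093, −0.003 and 0.086 in siRNA-Eif4a3. The groups overlap, since siRNA-Eif4a3 replicate 2 lies inside the range of the controls. All 3 siRNA-Eif4a3 libraries were above all 3 siRNA-NC libraries in 14.6% of the blocks and below in 6.68%, where the same counts over all blocks tested were 10.6% and 8.38%. Pooled over the 1012 genes, the blocks held 15.1%, 15.8% and 16.9% of the counts of their genes in siRNA-NC and 16.9%, 18.3% and 18.9% in siRNA-Eif4a3, with siRNA-Eif4a3 replicate 1 level with the highest control.

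Place in the gene went along with this difference. In the first of the 3 parts of a gene lay 53.2% of the blocks beside long gaps and 24.4% of the short-gap blocks. Among blocks beside long gaps the median log2 change was 0.139 in the first part, 0.019 in the middle and −0.028 in the last. Short-gap blocks had 0.083, −0.007 and −0.049 in the same order. Within each of these places the blocks beside long gaps were thus higher by less than 0.1, and in the first part the library medians were −0.049, −0.106 and 0.005 in siRNA-NC against 0.127, −0.001 and 0.172 in siRNA-Eif4a3, which overlap through siRNA-Eif4a3 replicate 2. In the 619 genes with blocks of both kinds, the median difference in the log2 ratio of long-gap to short-gap counts was 0.12 (quartiles −0.195 and 0.594). There the library medians of that ratio were −0.779, −0.817 and −0.692 in siRNA-NC and −0.688, −0.658 and −0.664 in siRNA-Eif4a3. The groups do not overlap, but only by the narrow margin between −0.692 and −0.688. The ratio was not matched for place in the gene.

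**Figure D3:**
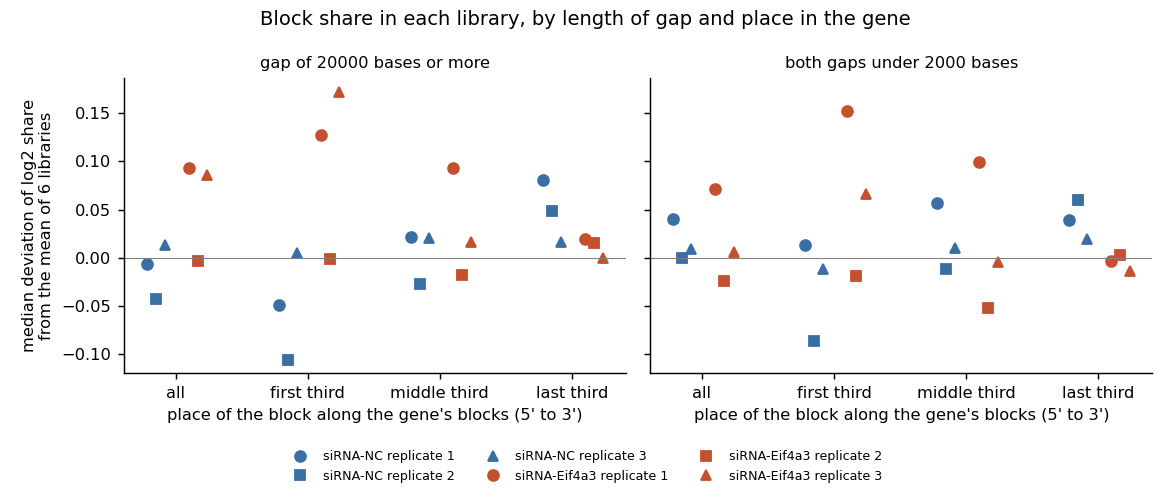
Median over blocks of the deviation of log2 block share from its mean over the 6 libraries, 1 point per library, for blocks beside long gaps (left) and short-gap blocks (right), for all blocks and by the 3 parts of the gene counted from 5′ to 3′. On the left, 2 siRNA-Eif4a3 libraries are above every siRNA-NC library in the first part, while siRNA-Eif4a3 replicate 2 lies within the range of the siRNA-NC libraries.

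By side and length of the gap the medians differed by nearly as much as they did between blocks beside long gaps and short-gap blocks. Blocks with the long gap only upstream (1014) had a median change of 0.093, those with it only downstream (659) had 0.028, and those between long gaps (228) had 0.031. These groups differ in place: 613, 291 and 108 of them lie in the first part of the gene. There the medians were 0.152, 0.117 and 0.126 in the same order. In the middle part they were 0.035, 0.026 and −0.072, and in the last −0.011, −0.055 and 0.019. By length of the longest gap, the median was 0.068 from 20000 to under 30000 bases (898 blocks), 0.070 to under 50000 (636), 0.031 to under 100000 (309) and 0.007 above that (58). No increase with length was seen. The longest gap of all, 517806 bases, lies in Immp2l, which encodes a protease subunit of the inner mitochondrial membrane. Its blocks 4 and 5, on the edges of that gap, held 16.2 ± 2.37% and 12.7 ± 5.46% of the gene's counts in siRNA-NC and 20.9 ± 1.78% and 14.8 ± 2.51% in siRNA-Eif4a3, differences within or near the spread of the libraries. Nrg1, a growth factor gene with a gap of 283291 bases at block 4, had 4.95 ± 3.85% and 7.62 ± 0.936%.

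The best counted blocks were nearly constant in share. This does not hold for every well counted block: Usp7 block 2, with 3346 counts, ranged from 13.2% to 27.5% within siRNA-NC. Anapc10, a subunit gene of the anaphase-promoting complex, had 26.7 ± 0.547% and 26.2 ± 0.431% at block 5 from 15876 counts, and Pemt, a phospholipid methyltransferase gene, had 14.1 ± 0.535% and 14.1 ± 0.398% at block 8 from 18565. The block of Atp5o with a share of 49.96 ± 0.324% and 49.9 ± 0.101%, beside a gap of 240088 bases, overlaps another annotated gene, as 132 of the 1901 blocks do (6.9%). At the thresholds of the rule, Ehd4 block 7 (gap 20014, share 17.2% and 20.3%) lay just inside and Rprd1a block 2 (gap 19993, 8.996% and 13.8%) just outside. On counts, Fbxw11 block 4 with 30 counts (1.39% and 2.30%) was just inside and Braf block 2 with 29 (3.02% and 3.65%) just outside.

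Blocks on opposite edges of a long gap were compared with each other. For 545 gaps with a described block on both sides, in 405 genes, the log2 changes of share on the 5′ and the 3′ edge had a Pearson correlation of 0.42 across gaps, which share libraries and gene totals, and 67.3% had the same sign. Both edges also share the read pairs that span the junction. For 14862 gaps under 2000 bases with a short-gap block on both sides the correlation was 0.69, and 73.7% had the same sign. For the 545 long gaps, the median log2 changes on the 5′ and the 3′ edge were 0.035 and 0.021. A different split shows where along the gene the counts moved. In 1049 genes whose longest gap is at least 20000 bases, the median log2 ratio of counts 5′ of that gap to counts 3′ of it was −3.14, −3.06 and −3.01 in siRNA-NC and −2.81, −2.90 and −2.61 in siRNA-Eif4a3. The groups did not overlap, and the median difference was 0.260. In 1104 genes with all gaps under 2000 bases, split at their longest gap, the medians were −1.27, −1.44 and −1.32 against −1.19, −1.29 and −1.22, a median difference of 0.071. The ratio was higher in all 3 siRNA-Eif4a3 libraries than in any siRNA-NC library in 21.5% of the genes with a long gap and 15.6% of the others, and lower in 3.9% and 4.3%. The split lay nearer the 5′ end in genes with a long gap (median position 0.231 of the blocks, against 0.5), and with the split in the first part the median differences were 0.286 and 0.092. Even there the positions were not matched, with medians of 0.125 and 0.25. With the split in the middle part the differences were 0.230 and 0.066, and in the last 0.158 and 0.056. In the last part the library medians of the 2 groups overlapped for long gaps.

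**Figure D4:**
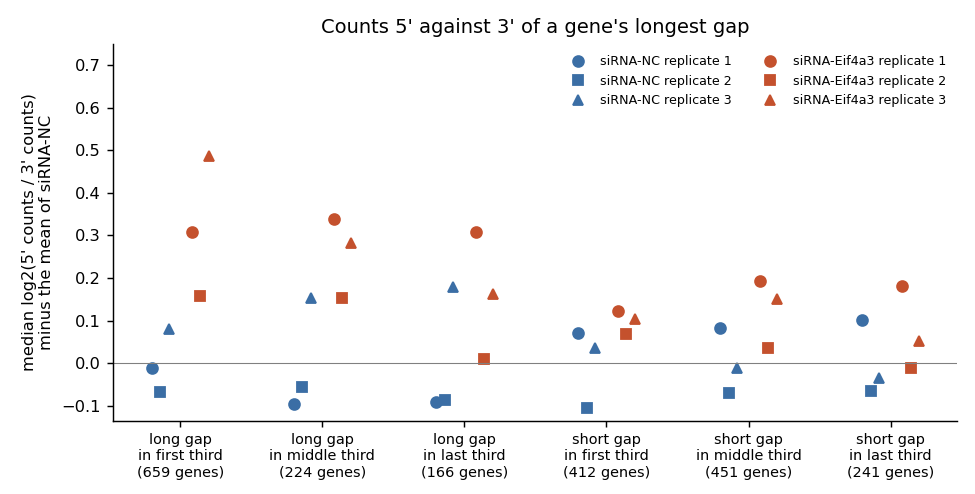
Median over genes of log2 (counts 5′ of the longest gap over counts 3′ of it), less the mean of the 3 siRNA-NC libraries, 1 point per library, for genes with a longest gap of at least 20000 bases (long) and genes with all gaps under 2000 bases (short), by the part of the gene (1 of 3) in which that gap lies. For long gaps in the first part all 3 siRNA-Eif4a3 libraries lie above all 3 siRNA-NC libraries.

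Among genes with several blocks beside long gaps, some had a lower mean share in siRNA-Eif4a3 at most of these blocks and others a higher one. Over all 1901 blocks, 57.5% were higher in siRNA-Eif4a3. Exoc4, Vps13b and Wdr70 were chosen for description after their values had been seen. They are among the genes with the most such blocks lower at an unadjusted p under 0.05. The 1012 genes comprise 533 with 1 such block, 282 with 2 and 197 with 3 or more, up to 11. Exoc4, which encodes the Sec8 subunit of the exocyst that tethers secretory vesicles, has 9 among its 25 blocks, and 7 of the 9 had a lower mean share. Blocks 10 and 11 held 6.99% and 6.04% in siRNA-NC and 7.53% and 6.51% in siRNA-Eif4a3. Beyond them, block 20 had 13, 11 and 24 counts in siRNA-NC and 11, 2 and 1 in siRNA-Eif4a3, block 22 had 11, 9 and 11 against 10, 1 and 0, and block 24 had 24, 4 and 15 against 6, 0 and 2. In counts, siRNA-Eif4a3 replicate 1 was near the controls at these blocks, while replicates 2 and 3 were lower. The gene total was 2100 in siRNA-Eif4a3 replicate 1 and 1000 to 1400 in the controls, and in share all 3 siRNA-Eif4a3 libraries lay below all 3 controls at blocks 20, 22 and 24. At block 24 replicate 1 had 0.286% and the lowest control 0.400%. None of the 9 passed the threshold (lowest adjusted p 0.0742 at block 24, log2 change −2.91). Without siRNA-Eif4a3 replicate 1, block 24 had −3.95 (adjusted p 0.0305), block 20 had −3.68 (0.0285) and block 22 had −4.41 (0.0409). With a replicate block the adjusted p at block 24 was 0.0427, and with all exon lines summed it was 0.0313 at block 20. The gene total was not called (log2 0.40, adjusted p 0.344 by edgeR).

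**Figure D5:**
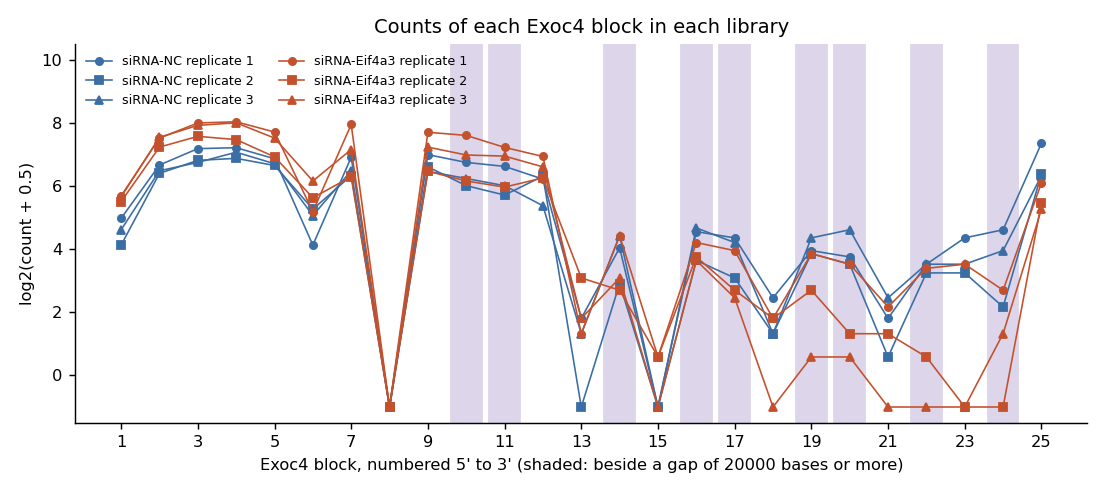
Counts of each of the 25 Exoc4 blocks in each library as log2(count + 0.5), numbered from the 5′ end, with blocks beside a gap of 20000 bases or more shaded. Blocks 1 to 12 are at similar or higher counts in siRNA-Eif4a3, and from block 19 on siRNA-Eif4a3 replicates 2 and 3 lie below the siRNA-NC libraries, apart from replicate 2 at block 21, while replicate 1 lies near them.

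Vps13b, a gene for a large lipid transfer protein of the Golgi, had 7 of 9 blocks with a lower mean share, and again 0 calls. At block 21 of 65 there were 5, 13 and 15 counts in siRNA-NC and 2, 5 and 0 in siRNA-Eif4a3 (log2 change −2.40, adjusted p 0.448). All 7 such blocks of Wdr70, a WD repeat gene, had a lower mean share. Its block 4, a well counted block outside the 7 with 456, 274 and 259 counts in siRNA-NC and 687, 963 and 862 in siRNA-Eif4a3, held 36.8% and 47.5% of the gene, so the lower shares of the other blocks stand beside a higher share of this one. In Mpp7 all 4 had a higher mean share.

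Of 13 lists of genes by role, only the chromatin regulators held a called block (Baz2b, 1 of 51 blocks in 30 genes). The Ras, MAP kinase and receptor tyrosine kinase list, chosen because of the fly work mentioned above, had 27 blocks in 15 genes with 0 calls, 0 at an unadjusted p under 0.05 in either direction, and a median change of 0.079. Its lowest p values belonged to the scaffold gene Gab1 (6.60 ± 2.55% against 3.98 ± 1.002% at block 3), the ubiquitin ligase gene Cbl (2.16 ± 0.814% against 4.07 ± 1.81% at block 3) and the kinase gene Mapk10 (6.42 ± 1.69% against 4.04 ± 0.726% at block 18), all with an adjusted p of 1. Over the 13 lists the median change ran from −0.038 (Wnt and TGF-beta signalling) to 0.427 (lineage and other transcription factors). PI3K, AKT and TOR genes had 10 blocks in 7 genes, with 0 calls and a median of 0.212. Of these blocks 90.0% were higher in mean, against 57.5% of all 1901. In that list Foxo3, a forkhead transcription factor gene, had a last exon of 1 coding transcript at block 5 with 13.5%, 10.3% and 11.9% in siRNA-NC and 28.2%, 20.6% and 26.1% in siRNA-Eif4a3 (log2 change 1.03, adjusted p 1 by edgeR and by limma, 0.0213 by DESeq2). With internal blocks only its log2 change was 0.16.

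Membrane traffic and autophagy genes held the most blocks, 115 in 37 genes, with 0 calls, and 1 higher and 10 lower at an unadjusted p under 0.05, where the background over all blocks tested is 1.87% and 1.47%. Exoc4 holds 5 of the 10 and Vps13b 3. Actin, adhesion and polarity genes had 90 blocks, 4 of them higher and 0 lower at that level, beside the same background, and included Pak2 above. RNA-binding and splicing factor genes had 49 blocks with 0 on either side. Rbfox2, a splicing regulator gene, had 5.87 ± 1.41% and 2.92 ± 0.721% at block 6 (unadjusted p 0.0662, adjusted 1). Among transcription factor genes Tcf12, of the basic helix-loop-helix type, had 0, 0 and 2 counts against 19, 9 and 3 at block 5, behind a gap of 90427 bases (adjusted p 0.767). In the DNA repair and replication list the cohesin regulator gene Pds5a had 1.67 ± 1.48% against 8.43 ± 3.54% at block 2 (adjusted p 0.201).

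As whole genes, the 1012 that hold these blocks were more often lower than higher in siRNA-Eif4a3. The edgeR gene test called 40 higher (3.95%) and 88 lower (8.70%), where of all 15619 genes tested 7.52% were higher and 5.56% lower. Of 5347 genes with a short-gap block and no block beside a long gap, 5.22% were higher and 6.86% lower, which leans the same way. The median log2 change was −0.125 in the 1012, −0.051 in the 5347 and 0.031 over all genes. By longest gap, 27 of 745 genes were higher and 74 lower from 20000 to under 50000 bases, 10 and 13 of 205 to under 100000, and 3 and 1 of 62 above. Lrp2, the endocytic receptor megalin of trophectoderm, fell from 642, 542 and 329 CPM to 50.1, 81.7 and 63.4 CPM (log2 −2.95, adjusted p 0.00188). Trip12, a ubiquitin ligase gene, and Vcl, an actin-binding protein gene, fell as well (log2 −1.93 and −2.23). Pibf1, a centrosomal protein gene, rose from 45.6, 47.6 and 48.0 CPM to 205, 212 and 181 CPM (log2 2.08, adjusted p 0.00221), and Abhd6, a monoacylglycerol lipase gene, rose by 2.14. None of the 7 genes with a called block passed the gene test, with log2 changes from −0.95 (Baz2b) to 0.50 (Pnpla8) and a lowest adjusted p of 0.0639.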

How the data were processed

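RNA of 6 pools of mouse embryos was compared, siRNA-NC against siRNA-Eif4a3. The authors deposited raw counts of read pairs per annotated exon line, made with featureCounts 2.0.1 at strand setting 2 and GENCODE vM29 placed on GRCm38, per the file headers, and a pair was counted in each line it overlaps. The tools fastp 0.20.1 and STAR 2.7.6a are also named, per the submitters' processing notes. Smart-seq2 does not mark the strand, so pairs in the other orientation are missing and overlapping genes cannot be told apart.

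Repeated lines were dropped (842173 lines, 449500 distinct exons), overlapping exons of a gene were merged, and the most counted line stood for its block. Summed counts per library were 15607227 to 18697754, and a pair spanning a junction enters more than 1 block. Usage of 71885 blocks was tested with edgeR 4.0.16 (glmQLFit, diffSpliceDGE, two-sided, Benjamini-Hochberg over all blocks) under R 4.3.3. Genes were tested with glmQLFTest. Log2 shares have 0.5 added to the block's count and 1 to the gene's. Blocks were placed in GENCODE vM21, also on GRCm38, whose transcripts gave the sequences. The usage test was first tested on simulated data with known changes in member blocks. There edgeR recovered 0 of 70 changes of 2-fold, 12 of 65 of 4-fold and 35 of 65 of 8-fold. DESeq2 recovered 18, 39 and 44 of them in the same order, but also called 85 blocks given no change. For edgeR such calls numbered 3 and for limma 0. The absence of a call therefore does not show that a share was unchanged. limma 3.58.1 and DESeq2 1.42.0 were alternatives.

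The members, the lists and the named-gene rule were chosen with earlier results of these data known. The rule named called blocks whose groups did not overlap, those with the longest gaps and the most counts, those at the thresholds, and up to 3 per list by p. Same-numbered libraries correlated by 0.269, 0.003 and 0.100 in their deviations, so the groups were compared unpaired. No column of another sample was found (0).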

Additional observations from a re-analysis of the deposited data

How the results depend on the processing

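Among blocks beside long gaps, 7 were called higher and 0 lower in siRNA-Eif4a3. Size factors of DESeq2, a minimum of 10 counts and a fit on internal blocks only gave 6 or 7 higher and 0 lower. The count lower was 1 with all exon lines summed, with limma and with a replicate block, 3 at a gap of 10000 bases and 9 with DESeq2. The count higher was 2 at a minimum of 100 counts, 12 with limma, 31 with DESeq2, 3 among blocks that are only internal exons in GENCODE vM21 (chosen after seeing the data), 17 at a gap of 10000 bases, 2 at 50000, and 0 in the middle and in the last of the 3 parts of the gene. Leaving out 1 library gave 1 to 7 higher and 0 to 3 lower: 1 higher without siRNA-NC replicate 1 or 2, 2 without siRNA-NC replicate 3, 3 and 4 without siRNA-Eif4a3 replicates 2 and 3, and 3 lower without siRNA-Eif4a3 replicate 1. With a replicate block 10 were higher, 5 of the 7 among them.

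For short-gap blocks, 26 higher and 16 lower became 12 and 5 at 100 counts, 208 and 168 with DESeq2, and 6 to 26 and 1 to 36 without 1 library. Higher calls were 40 with limma, 48 with a replicate block, 16 among internal exons of vM21 and 13 at gaps under 1000 bases, and lower calls were 10 with internal blocks only. In the first, the middle and the last part of the gene, higher calls were 13, 6 and 7 and lower calls 2, 8 and 6. The median change of share was 0.139, 0.019 and −0.028 in the same order for long gaps, and 0.083 in the first and −0.049 in the last part for short gaps. It was 0.040 to 0.099 and −0.021 to 0.018 without 1 library. With internal blocks only it was 0.020 for long gaps, against 0.063. Genes with such blocks numbered 83 higher and 147 lower with DESeq2, and 10 to 46 and 29 to 113 without 1 library. Eif4a3 kept its call in every alternative run, from −3.29 to −2.34. For each of these changes the cause was not tested, other than the smaller number of blocks or libraries where a setting removes them. The median block beside a long gap had 142 counts over the 6 libraries.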
